A study of Mus musculus with 24 samples.

Results

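Histones are the proteins around which nuclear DNA is wound, and their genes fall into a pair of kinds. The clustered genes for H1, H2A, H2B, H3 and H4 lie in gene clusters, are transcribed mainly while DNA is replicated, and give mRNAs that mostly end in a stem-loop in place of a poly(A) tail, although some of them also give polyadenylated mRNAs in cells that have stopped dividing. The variant genes, among them H3f3b for H3.3, lie apart, mostly give polyadenylated mRNAs and supply histones outside replication, which matters in muscle, whose fibres have left the cell cycle. HIRA is the chaperone that places H3.3 in chromatin outside replication. The histone genes were followed on arrays of muscle from mice whose second Hira copy was intact or null, beside a floxed copy that all of them carried.

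The members were all probe rows whose gene symbol marks a clustered histone, an H1, H2A, H2B or H3.3 variant gene, or Cenpa, which encodes the centromeric H3. They were 46 rows for 42 genes, of 20377 named rows and 17742 genes in all. Of these, 30 were clustered genes (6 for H1, 9 each for H2A and H2B, 3 each for H3 and H4) and 12 were variants. For 4 of the variants, H2al3, H2ap, H2bfm and H2bl1, the annotation used clone names, and the other 38 genes were found by their annotated symbol. Current symbols are used below, with the annotated one at first mention where it differs. A further 2 rows fit the letters of the rule and were left out, as H2AA stands for the class II antigen gene H2-Aa and H2AB1 may stand for H2-Ab1.

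Tibialis anterior, a leg muscle, came from mice aged 6 months on a mixed C57BL6/J and 129S1/SvImJ background. The 4 control animals had the genotype Myf6 cre/+; Hira flox/+ and the 4 knockout animals Myf6 cre/+; Hira flox/-, so that all 8 animals carried the Cre allele and 1 floxed copy of Hira, and the groups differed in the other copy, intact or null. Cre from the Myf6 locus acts in myofibres, while the null copy lay in every cell of the knockout animals, and whole muscle was extracted. Total RNA of each animal was hybridised 3 times (24 arrays), and values below are animal means of log2 intensity, with the animal as the replicate. Knockout minus control is the log2 difference, and a gene was called changed at an adjusted p under 0.05 (limma, Benjamini-Hochberg over all 17742 genes). The number of animals limits the precision.

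Scaling left all 24 arrays with the same median intensity of 626. Genes with a group mean at or below an intensity of 125 (each array's 5th percentile lay at or under it) are called dim, and 10 of the 42 histone genes were dim in both groups, which left 32 with a level above it. Of 8 measured myofibre genes 0 were called, beside 9.28% of all genes tested. Their summed intensity was 2323910 to 3053150 in control and 1929410 to 2900650 in knockout animals. None of the 8 had a difference above 0, and their median was -0.16, beside -0.066 over all genes tested. In 1 of them the groups did not overlap, lower in knockout muscle, beside 10.2% of all genes. Hira itself was not called (difference -0.15, 95% interval -0.51 to 0.22; limma, adjusted p = 0.623), and the sources used here do not place its probe relative to the deleted part. In whole muscle, fewer cells of a type and less RNA per cell cannot be told apart.

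Of the 42 histone genes, 6 were called, 2 higher and 4 lower in knockout muscle. That is 14.3% of them, where 9.28% of all genes tested were called, 4.28% higher and 5.01% lower. The rises were those of the H4 gene H4c9 and the linker gene H1f2. The falls were those of the linker gene H1f4, the H2B gene H2bc6, the H2A gene H2aw and the variant H2ax. Among clustered genes 2 rose and 3 fell of 30 (16.7% called), and among variants 0 rose and 1 fell of 12 (8.33% called). The median difference was -0.082 over clustered genes and 0.013 over variants, beside -0.066 over all genes tested. The groups did not overlap in 8 of the 42 genes (19.0%), 3 higher and 5 lower, beside 17.5% of all genes tested, 7.24% higher and 10.2% lower.

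**Figure D1:**
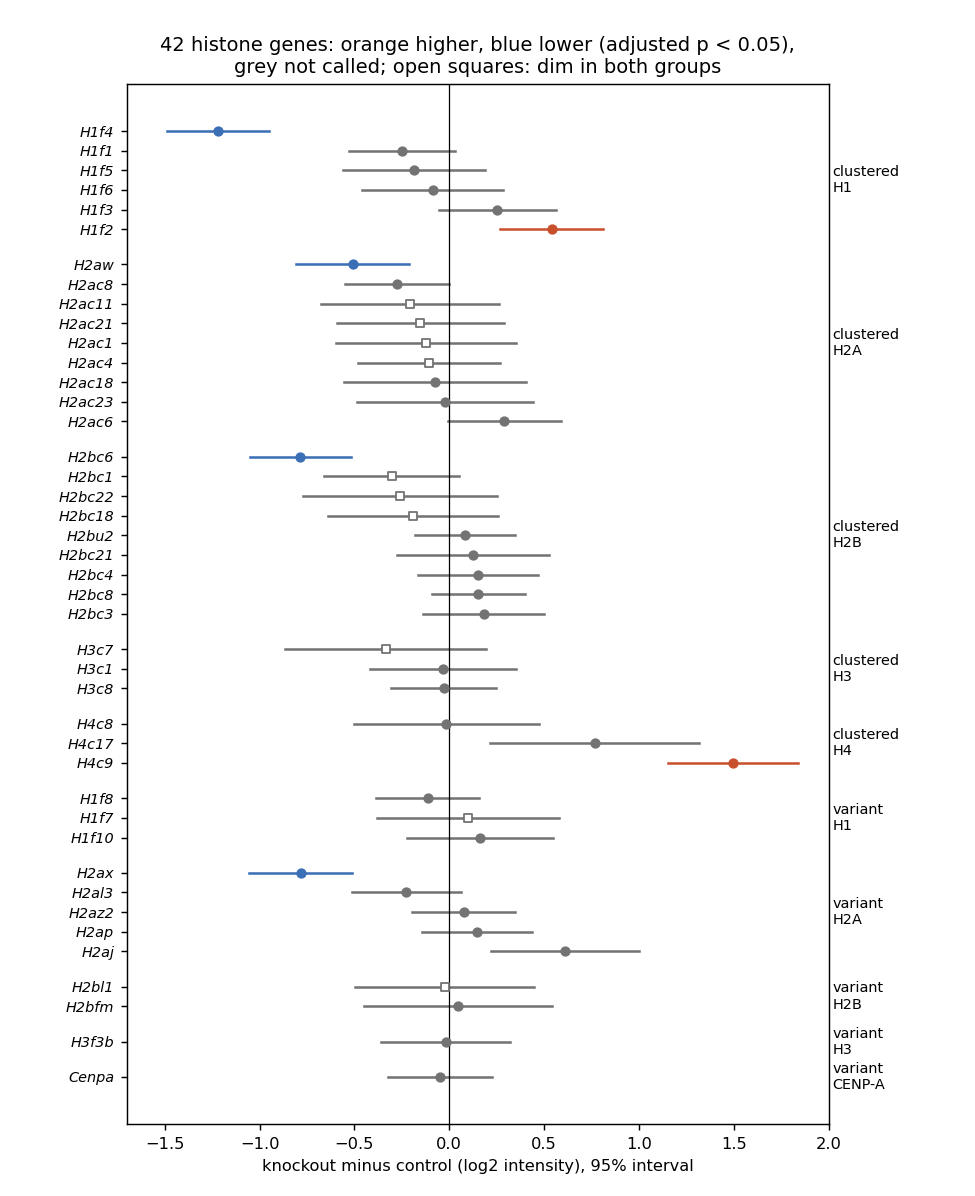
Difference between knockout and control for each of the 42 histone genes (x axis, log2 intensity; points with 95% intervals), by class and family. Orange genes were higher and blue genes lower at an adjusted p under 0.05, grey genes were not called and open squares mark the 10 genes dim in both groups; most genes lie near 0, with H4c9 at 1.50 and H1f4 at -1.22 at the ends.

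The linker histones, which bind DNA where it enters and leaves the nucleosome, changed in opposite directions. H1f4 (annotated Hist1h1e), for subtype H1.4, lay at 10.96, 10.82, 11.27 and 10.97 in control animals 1 to 4 and at 9.88, 9.80, 9.75 and 9.73 in knockout animals 1 to 4. Every knockout animal was below every control animal. The means were 11.01 ± 0.19 (SD, n = 4) and 9.79 ± 0.07, a difference of -1.22 ± 0.12 (SE) or 2.33-fold lower (limma, adjusted p = 0.00018). Its other probe row had a difference of -0.51 ± 0.18, with overlapping groups and an adjusted p of 0.10 over all named rows, of which 8.99% were called (limma), and control animal 3 (9.41) was the low one there. H1f2 (Hist1h1c), for subtype H1.2, lay at 16.43, 16.64, 16.23 and 16.32 in control and at 16.90, 16.95, 17.09 and 16.82 in knockout animals. The knockout animals were all above the control animals, by 0.54 ± 0.12 (SE) or 1.45-fold (limma, adjusted p = 0.021). That call was lost without control animal 1 (0.55; limma, adjusted p = 0.051), control animal 3 (0.48; 0.058), control animal 4 (0.51; 0.059) or knockout animal 3 (0.49; 0.073), and the adjusted p ranged from 0.0024 to 0.27 over all 27 alternatives.

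Of the other 4 clustered H1 genes none was called. H1f3 (Hist1h1d) stood at 0.25 (95% interval -0.055 to 0.56), H1f1 (Hist1h1a) at -0.25 (-0.53 to 0.032) and H1f5 (Hist1h1b) at -0.19 (-0.56 to 0.19). The testis linker H1f6 (Hist1h1t) stood at -0.087 (-0.46 to 0.28).

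The stretches upstream of the genes that were called are shown so that the promoters of genes that rose and fell can be read side by side. RefSeq (GRCm38.p6) gave windows for 37 of the 42 genes, and H2ax, H2bc4, H2bc21, H3c1 and H3c7 had none there. Each line below holds the 150 bases before a transcription start, 5′ to 3′ on the gene's strand. Capitals mark the CCAAT box (CCAAT), the TATA box (TATAAA), the octamer of H2B promoters (ATTTGCAT) and the H1 box (AAACACA), each searched on both strands. H1f2 lies at chr13:23738657-23738806 (plus strand), H1f4 at chr13:23622559-23622708 (minus), H2bc6 at chr13:23585971-23586120 (minus, 1 of 2 starts in the table), H2aw at chr11:58954535-58954684 (plus) and H4c9 at chr13:22041363-22041512 (minus).
H1f2: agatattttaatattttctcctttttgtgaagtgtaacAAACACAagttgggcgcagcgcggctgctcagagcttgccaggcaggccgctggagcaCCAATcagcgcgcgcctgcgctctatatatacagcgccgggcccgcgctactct
H1f4: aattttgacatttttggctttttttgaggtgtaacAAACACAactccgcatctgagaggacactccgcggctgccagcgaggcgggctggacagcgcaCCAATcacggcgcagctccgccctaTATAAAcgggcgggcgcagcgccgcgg
H2bc6: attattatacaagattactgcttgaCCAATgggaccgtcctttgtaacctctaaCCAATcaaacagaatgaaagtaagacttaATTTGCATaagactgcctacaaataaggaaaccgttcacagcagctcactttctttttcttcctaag
H2aw: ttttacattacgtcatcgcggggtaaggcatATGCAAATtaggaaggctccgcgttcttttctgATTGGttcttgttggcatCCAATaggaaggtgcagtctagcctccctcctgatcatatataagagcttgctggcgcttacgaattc
H4c9: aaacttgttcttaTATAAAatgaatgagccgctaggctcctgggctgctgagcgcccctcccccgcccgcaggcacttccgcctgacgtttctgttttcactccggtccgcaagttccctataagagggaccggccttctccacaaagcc
H1f2, which rose, and H1f4, which fell, each hold an H1 box and a CCAAT box in these stretches, and H1f4 also the letters TATAAA. The only match in that of H4c9 is TATAAA far from the start. As the search took exact letters, related letters nearer the start are not marked, such as tatata in H1f2 and H2aw and tataag in H4c9. The TATA matches thus do not separate these promoters. The H2bc6 stretch shown holds the octamer with a pair of CCAAT boxes, while that of its other start in the table holds 1 CCAAT box and no octamer. The stretch of H2aw has the same elements as the one shown, with the octamer and 1 CCAAT box reversed.

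Over the 250 bases before each start, the CCAAT box stood in 24 of 27 windows of clustered genes (88.9%), beside 33.8% of all 32851 windows of the table. The TATA box stood in 59.3% of the clustered windows, beside 12.4% of all. The H1 box stood in 5 of 6 windows of clustered H1 genes, beside 6.25% of all windows. The octamer stood in 5 of 8 windows of clustered H2B genes and 5 of 9 of clustered H2A genes, beside 1.6% of all. Windows of H2A and H2B genes that start close together can share bases. None of the 3 windows of H4 genes held a CCAAT box. Among variants, the CCAAT box stood in 8 of 11 windows and the TATA box in 2. A match is a description of letters and shows no binding.

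H2A and H2B form the outer dimers of the nucleosome, and 1 of 9 clustered genes of each was called (11.1%), beside 9.28% of all genes tested. H2bc6 (Hist1h2be) lay at 9.59, 9.44, 9.59 and 9.48 in control animals and at 8.98, 8.54, 8.74 and 8.70 in knockout animals. The groups did not overlap, and the difference was -0.78 ± 0.12 (SE), or 1.72-fold lower (limma, adjusted p = 0.0026). The other 8 clustered H2B genes lay between -0.30 and 0.18 and were not called. Of these, 3 were dim in both groups, H2bc1 (Hist1h2ba) at the -0.30 end among them. A bright one of the 8, H2bc4 (Hist1h2bc), lay at 14.85 to 15.27 in control and 14.97 to 15.51 in knockout animals (difference 0.15, 95% interval -0.17 to 0.47). The highest difference among the uncalled H2B genes was that of H2bc3 (Hist1h2bb) at 0.18, which lay at 8.22, 8.26, 8.25 and 8.21 in control and at 8.38, 8.67, 8.02 and 8.59 in knockout animals, with knockout animal 3 below all control animals. H2bc21 (Hist2h2be) stood at 0.13 and at 0.018 in its other row.

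H2aw (Hist3h2a), an H2A gene of the small chromosome 11 cluster, lay at 12.13, 12.35, 12.14 and 12.46 in control and at 11.56, 11.81, 11.65 and 12.00 in knockout animals. All knockout animals were lower, by 0.51 ± 0.13 (SE) or 1.42-fold (limma, adjusted p = 0.038). Its other row differed by -0.23 ± 0.14, with overlap. The call was lost when any animal but knockout animal 4 was left out, with differences of -0.56 to -0.45 and adjusted p of 0.054 to 0.11 (limma; 0.0020 to 0.21 over all 27 alternatives). H2ac8 (Hist1h2ae) stood at -0.27 (95% interval -0.55 to 0.000057) and was not called, although its highest knockout animal (10.64) lay just below its lowest control animal (10.65). The highest difference in the family was that of H2ac6 (Hist1h2ac), 0.29 (95% interval -0.0079 to 0.59), with control animals at 7.81, 7.73, 7.79 and 8.08 and knockout animals at 8.05, 8.11, 8.43 and 7.97. Its groups overlapped through control animal 4. With it, the remaining 7 clustered H2A genes lay between -0.21 and 0.29, and 4 of them were dim in both groups.

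H3 and H4 form the core tetramer. Of 3 clustered H3 genes 0 were called, beside 9.28% of all genes tested, and 3 genes are too few to compare with that share. H3c8 (Hist1h3g) stood at -0.030 (95% interval -0.31 to 0.25), H3c1 (Hist1h3a) at -0.034 (-0.42 to 0.35) and the dim H3c7 (Hist1h3f) at -0.34 (-0.86 to 0.19). H3c7 lay at 6.81, 6.00, 6.76 and 6.82 in control and at 6.35, 5.63, 6.37 and 6.69 in knockout animals, and H3c8 at 12.68, 12.75, 12.82 and 12.69 and at 12.50, 12.997, 12.62 and 12.69. Both overlapped between the groups.

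H4c9 (Hist1h4i) had the largest change of the 42 genes. It lay at 13.64, 13.54, 13.94 and 14.14 in control animals and at 15.14, 15.58, 15.26 and 15.26 in knockout animals. The lowest knockout animal was about 1 unit of log2 above the highest control animal. The means were 13.82 ± 0.27 (SD, n = 4) and 15.31 ± 0.19, a difference of 1.50 ± 0.16 (SE) or 2.82-fold (limma, adjusted p = 0.00023). H4c17 (Hist1h4m) lay at 7.45, 6.97, 7.94 and 8.37 in control and at 8.45, 8.25, 8.45 and 8.64 in knockout animals. Its groups overlapped through control animal 4, and the difference of 0.77 ± 0.25 (SE) was not called (limma, adjusted p = 0.082). It was called in 6 of 27 alternatives (limma, adjusted p of 0.0036 to 0.23 over all 27). These were the fit with the series of animal numbers (animals 1 and 2 against 3 and 4) as a block (adjusted p = 0.031), quantile normalization (0.049), cyclic loess (0.040), both fits on all arrays (0.0036 and 0.0049) and the fit without control animal 4 (0.996 on the log2 scale; 0.019). Within animals 1 and 2 of each group the difference was 1.14, and within animals 3 and 4 it was 0.39, called in neither. The 2 arrays of highest background were hybridisation 1 of control animal 4 (5th percentile of intensity 125) and of control animal 3 (107). Without those arrays H4c17 was not called. The part of background in its values was not tested. H4c8 (Hist1h4h) lay at 13.18, 13.84, 14.00 and 13.53 in control and at 13.49, 14.18, 13.23 and 13.59 in knockout animals, with overlap and a difference of -0.016 (95% interval -0.50 to 0.47). All H4 genes encode the same protein and their coding sequences are alike, and probe sequences were not used here, so how far a row is limited to 1 H4 gene was not tested. The same holds for the near-identical H2A, H2B and H3 genes.

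**Figure D2:**
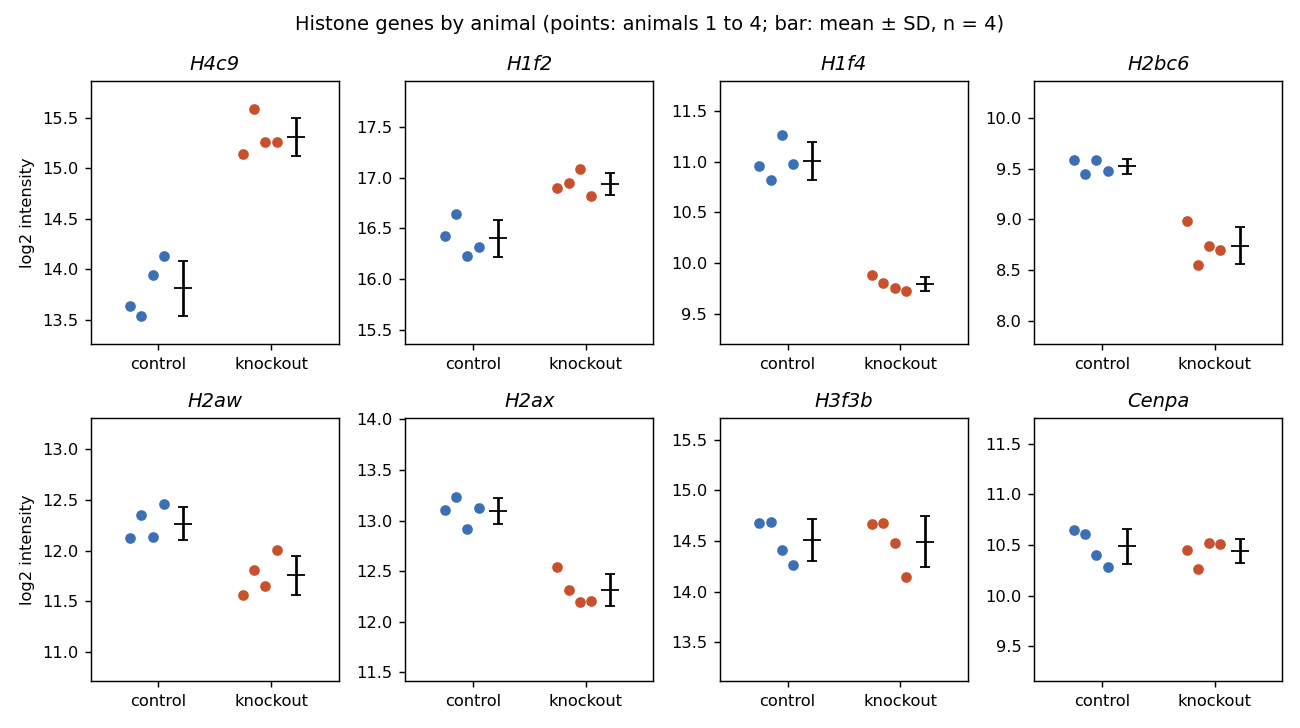
Log2 intensity (y axis, 2.6 units in every panel) of the 6 called genes and of H3f3b and Cenpa in control (blue) and knockout (orange) animals, with mean ± SD (n = 4) beside the points. The groups stand apart in the 6 called genes and overlap in H3f3b and Cenpa.

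Of the variants, H2ax (H2afx) was called. It encodes H2A.X, which is phosphorylated around DNA breaks. It lay at 13.11, 13.23, 12.92 and 13.13 in control and at 12.54, 12.31, 12.20 and 12.20 in knockout animals. Every knockout animal was lower, with a difference of -0.78 ± 0.12 (SE) or 1.72-fold lower (limma, adjusted p = 0.0030). H2aj (H2afj), for the variant H2A.J, lay at 12.31, 12.97, 12.31 and 12.61 in control and at 13.07, 13.54, 13.03 and 12.99 in knockout animals. Its groups did not overlap, but the difference of 0.61 ± 0.18 (SE) missed the threshold (limma, adjusted p = 0.056). It passed in 12 of 27 alternatives, quantile normalization (0.65), cyclic loess (0.66) and the series block (limma, adjusted p = 0.048) among them, and without control animal 2 (0.75; 0.019; 0.0032 to 0.29 over all 27). Its other row stood at 0.13, with overlap.

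H3f3b, the measured gene for H3.3, which HIRA handles, lay at 14.68, 14.69, 14.41 and 14.27 in control and at 14.67, 14.68, 14.48 and 14.15 in knockout animals. The groups lay over one another, with a difference of -0.019 ± 0.15 (SE; 95% interval -0.36 to 0.32; limma, adjusted p = 0.95). Its sign turned in 7 of 27 alternatives, quantile normalization (0.030) and cyclic loess (0.060) among them, and none called it. Cenpa lay at 10.65, 10.60, 10.40 and 10.28 in control and at 10.45, 10.26, 10.52 and 10.51 in knockout animals, with a difference of -0.049 ± 0.12 (SE; 95% interval -0.32 to 0.22; limma, adjusted p = 0.84). H2az2 (H2afv), for an H2A.Z protein, stood at 0.075 and the dim germ-line linker H1f7 (H1fnt) at 0.099. The linker variant H1f10 (H1fx) lay at 11.50, 11.78, 11.95 and 12.02 in control and at 11.90, 11.56, 12.26 and 12.17 in knockout animals (0.16). The oocyte linker H1f8 (H1foo) lay at 8.17, 8.50, 8.45 and 8.42 and at 8.10, 8.39, 8.19 and 8.39 (-0.11). Both overlapped. The 4 variants under clone names lay between -0.23 and 0.15, none called. Of the H2B pair among them, H2bfm lay at 7.52, 7.99, 7.86 and 8.52 in control and at 8.19, 8.30, 8.11 and 7.49 in knockout animals (0.046), and the dim H2bl1 at 6.20, 5.82, 6.71 and 6.82 and at 6.59, 6.33, 6.05 and 6.49 (-0.024). Among the rows found by the rule, none was named H3f3a, H2afz, H2afy or H1f0, so these genes were not analysed here.

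The clustered genes did not move as a block. Averaged over the 30 genes, animals lay at -0.099, -0.15, 0.078 and 0.17 from the control mean in the control group and at -0.080, -0.027, -0.12 and 0.080 in the knockout group. The groups overlapped in this average. Of the 30 genes, 8 were dim in both groups, and the part of background in the average was not tested. The 3 H4 genes together lay at -0.29 to 0.30 in control and 0.60 to 0.96 in knockout animals. This average mixed H4c9 (1.50), H4c17 (0.77, not called) and H4c8 (-0.016), so it does not show a rise of every H4 gene. The 6 H1 genes together lay at -0.11 to 0.088 and -0.33 to -0.062, and they included H1f4 (-1.22) and H1f2 (0.54), which changed in opposite directions. Among the 12 variants the animals lay at -0.13 to 0.13 and -0.059 to 0.045.

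By position, 25 of the 42 genes lie on chromosome 13, 24 of them clustered, and 4 clustered genes there were called. That is 16.0% of the 25, beside 9.28% of all genes tested. H2bc6 and H1f4, which both fell, are next to each other among the measured histone genes in RefSeq gene order, and H1f2, which rose, is the fourth measured histone gene beyond H1f4. Between them H2ac6 stood at 0.29, H2bc4 at 0.15 and H1f6 at -0.087. H4c9 comes between H4c17 (0.77) and H2ac11 (-0.21) in the measured order, although other genes lie between H4c17 and H4c9. Of 18 other measured genes between the outermost of these clustered genes, 0 rose and 1 fell (5.56%, beside 9.28% of all genes called and 5.01% lower), namely C230035I16Rik at -0.71 ± 0.14 (SE; limma, adjusted p = 0.0093). Of the 4 measured clustered genes on chromosome 3, 0 were called, beside the same 9.28% of all genes.

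**Figure D3:**
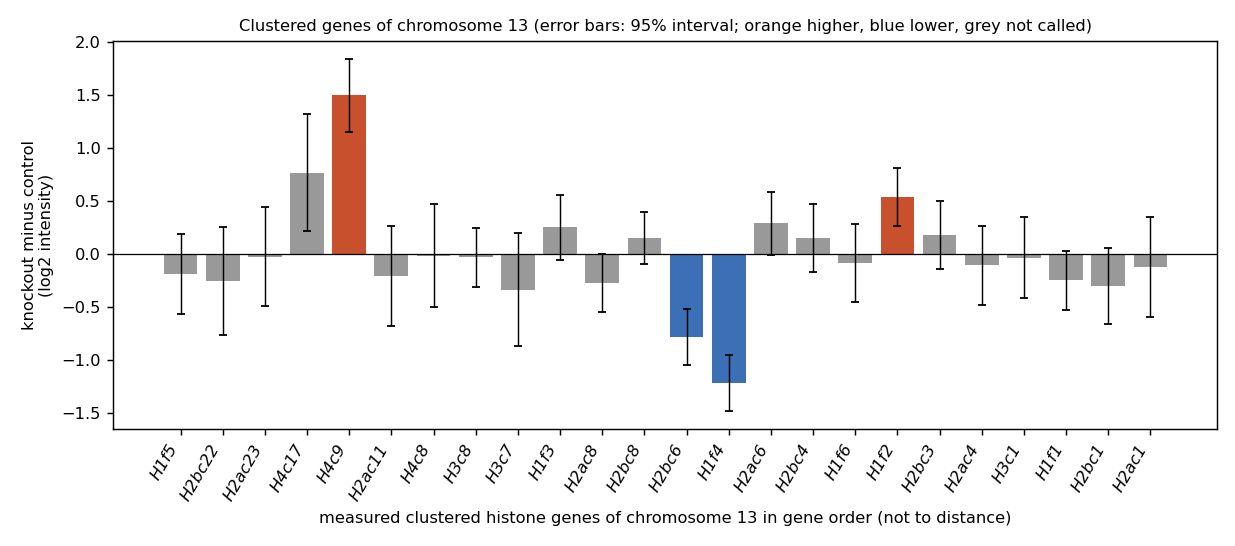
Difference between knockout and control (y axis, log2 intensity; error bars are 95% intervals) for the 24 measured clustered histone genes of chromosome 13 in gene order, not to distance. H2bc6 and H1f4, side by side, are lower, H4c9 and H1f2 are higher, and the 20 grey genes were not called.

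Genes that act on histones were counted beside them. Of 17 measured genes for histone mRNA synthesis and 3′ end formation, 0 rose and 1 fell, beside 4.28% and 5.01% of all genes. The one that fell was Lsm10, which encodes a part of the U7 particle that cleaves stem-loop histone mRNAs. It lay at 13.22 to 13.42 in control and 12.67 to 13.01 in knockout animals (-0.49 ± 0.12, SE; limma, adjusted p = 0.024). Slbp, for the stem-loop binding protein, stood at 0.089 and Npat, an activator of histone transcription, at 0.028. Neither was called.

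Of 33 measured genes for histone chaperones and variant exchange, 2 rose and 3 fell, beside 4.28% and 5.01% of all genes, with a median of 0.024. Nasp, a chaperone of free H3 and H4, lay at 11.29, 11.23, 11.08 and 11.05 in control and at 11.77, 12.01, 11.82 and 11.80 in knockout animals. It rose by 0.69 ± 0.11 (SE; limma, adjusted p = 0.0038), with no overlap. Asf1b, which hands H3 and H4 to assembly factors, lay at 7.59 to 7.93 and 9.93 to 10.34 (2.34 ± 0.13, SE). Mcm2, a replicative helicase subunit that also binds H3 and H4, stood at -0.51, Mis18a, which primes centromeres for CENP-A, at -0.47 and Chaf1a at -0.46. Daxx (0.062) and Atrx (0.22), the other route of H3.3 deposition, were not called.

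Of 33 measured S phase and proliferation genes, 3 rose and 1 fell, beside 4.28% and 5.01% of all genes, with a median of 0.12. Cdc6, Gins2, Cdk1 and Pola1 were dim in both groups and Top2a in control, and they count in that median. The groups did not overlap in 4 genes that were higher and 6 that were lower, beside 7.24% and 10.2% of all genes. The lower ones were Rfc3 and, not called, Mcm3 (-0.45), Mcm4 (-0.31), Mcm6 (-0.94), Cdk2 (-0.46) and Prim1 (-0.41). Summed intensity over the list was 27951 to 31700 in control and 33228 to 35381 in knockout animals. Without Mki67, a marker of cycling cells that was not called (0.58 ± 0.18, SE; limma, adjusted p = 0.071), the sums overlapped, at 23992 to 25584 and 24669 to 26311. Rrm2, for a subunit of ribonucleotide reductase, rose by 1.47 ± 0.28 (SE; limma, adjusted p = 0.0087), and knockout animal 2 (10.34) was its highest animal. Uhrf1, for a factor that binds hemimethylated DNA, stood at 6.55 in control, where it was dim, and at 7.61 in knockout muscle, and Kif11, a mitotic kinesin, at 7.08 and 7.77. Rfc3, of the clamp loader, fell by 0.53 ± 0.14 (SE; limma, adjusted p = 0.034). The part of dividing cells in the histone differences was not tested.

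Markers of other cell types were counted in the same way, beside 4.28% of all genes higher and 5.01% lower. Endothelial markers fell in 3 of 10 (summed intensity 75454 to 97559 in control and 51476 to 66224 in knockout animals), smooth muscle and pericyte markers in 3 of 6 (35243 to 43969 and 25891 to 31081), Schwann cell markers in 2 of 5 (23354 to 32845 and 18190 to 23562) and adipocyte markers in 2 of 6 (79167 to 101349 and 54794 to 92150). Blood cell markers fell in 1 of 3 (3075 to 4152 and 1304 to 2891) and satellite cell markers in 1 of 7 (15752 to 18590 and 15386 to 17948). Of 9 macrophage markers Cd163 alone was called, lower at -0.93 with overlapping groups, while the median of the 9 was 0.43 (16748 to 38061 and 21921 to 50318). Of 8 lymphocyte markers 1 rose and 1 fell (4450 to 4973 and 4565 to 5011). Of 9 fibroblast markers 0 were called (161908 to 239214 and 141466 to 263604), and of 6 germ cell markers 0 (1797 to 2092 and 1603 to 2440). Dim in both groups were S100a8 of the blood cell markers, Cnn1 of smooth muscle, Col1a1 of fibroblasts, Tnp1 of germ cells, and Ms4a1 and Nkg7 of lymphocytes. Calcr, the called satellite cell marker, and Lep, a called adipocyte marker, were dim in knockout muscle. The part of these cell types in the histone differences was not tested.

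**Figure D4:**
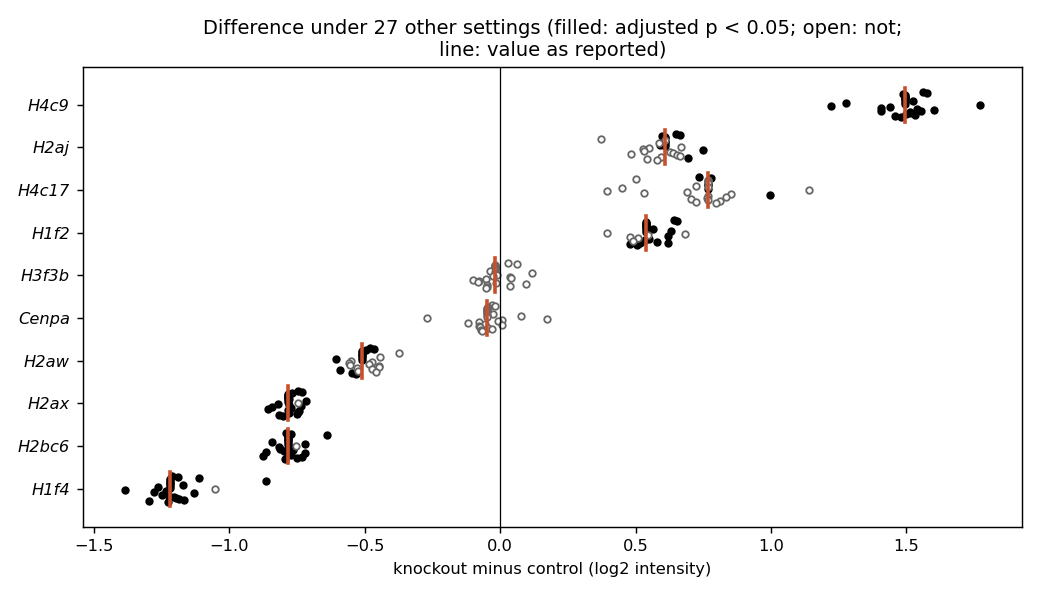
Difference between knockout and control (x axis, log2 intensity) for 10 histone genes under 27 other settings of the processing, with the reported value as an orange line. Filled points passed an adjusted p of 0.05 and open points did not; H4c9 passed in all 27, while H3f3b and Cenpa lie on both sides of 0 and passed in none.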

How the data were processed

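Intensities of 26423 probe rows on 24 arrays were used as deposited by the authors, on a linear scale. How the authors made the deposited intensities is not stated in the labels; per the labels, total RNA was labelled (the label field names Cy3 and the protocol Cy5), and whether labelling reached RNAs without a poly(A) tail is not given. Equal array medians show a scaling, and up to 5.37% of an array's values lay at or below 0.

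Values below the 5th percentile of all values (38.8) were raised to it, log2 was taken, and the 3 hybridisations of an animal were averaged. Symbols, from an old platform annotation, were updated through RefSeq (GRCm38.p6). The row of highest mean stood for a gene. The 8 animal means were fitted by genotype (limma 3.58.1, R 4.3.3), with Benjamini-Hochberg adjustment over 17742 genes. The fit was also run on simulated data with independent noise and added differences larger than most of those called among the histone genes. That run is not used as support here. Fold is 2 to the power of the log2 difference. Animals were numbered 1 to 4 in deposit order, which pairs nothing. Members and gene lists were chosen with earlier results of these data known. By rule, every animal's value is given for called members, H3f3b, Cenpa and each family's highest and lowest difference, Hira is named once, and up to 4 called genes of smallest p are named per other list; H4c17 (every animal), Chaf1a, Slbp, Npat, Daxx, Atrx, Cd163, the uncalled S phase genes, C230035I16Rik and H2-Aa were added after their values were seen. The alternatives covered scaling, low values, probe rows, hybridisations, variances, the series of animal numbers and each animal left out; the S phase sum without Mki67 was chosen after seeing the data.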

Additional observations from a re-analysis of the deposited data

Results flagged for a closer look

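In 84 sets of 4 animals (42 genes in each group), 2 held an animal far from the others, where chance gives about 1 in 20. Control animal 2 was low for the dim gene H3c7, at 6.00 where the next animal was at 6.76 and the highest at 6.82 (gap over range 0.929). Knockout animal 2 was high for H2aj, at 13.54 where the next was at 13.07 and the lowest at 12.99 (gap over range 0.86).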

How the results depend on the processing

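H4c9 was called under all 27 alternatives (1.22 to 1.77), and H1f4, H2bc6 and H2ax under all but series A, animals 1 and 2 of each group alone (-1.05, -0.75 and -0.74). H1f2 lost its call in 6 and H2aw in 13; 4 of the 6 reported calls held without control animal 1, control animal 3, control animal 4 or knockout animal 3. Among variants the count of rises, reported as 0, was 1 (H2aj) under quantile normalization, cyclic loess, the added constant, the higher floor, the dim filter, both fits on all arrays, the intensity trend, array weights and the series block. Clustered falls, reported as 3, were 5 with array weights and 0 in series A; clustered rises were 1 in series A and 1 in series B (animals 3 and 4), and variant falls 0 in series A. The clustered median was -0.20 with array weights and 0.072 in series A, and the variant median -0.098 in series B. All genes called numbered 2569 under quantile normalization, 3149 on all arrays (animal as random block), 2978 with the hybridisation number added as a replicate block, 3609 with array weights, 62 in series A and 508 in series B. Arrays of the same hybridisation number from different animals correlated in their deviations at -0.63 to 0.75 (median 0.042). Arrays of different numbers correlated at -0.655 to 0.63 (median -0.017). Such wide ranges cannot tell whether arrays of the same number were processed together. The replicate block called 8 histone genes, the 6 reported with H2aj and H4c17.

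Leaving out 1 animal or hybridisation number gave 1 to 2 clustered rises, 0 to 1 variant rises and 945 to 1693 genes called in all. H3f3b, not called, lay at -0.10 to 0.097 over these and Cenpa at -0.12 to 0.0085. H3f3b turned to 0.030 under quantile normalization, 0.060 under cyclic loess, 0.12 with array weights, 0.037 without control animal 1, 0.040 without control animal 2, 0.097 without knockout animal 4 and 0.038 without hybridisation 2. Cenpa turned to 0.078 with array weights, 0.17 in series B, 0.0059 without control animal 1 and 0.0085 without knockout animal 2. The cause of these changes was not tested. Signal near background limits the 10 dim genes.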

Other observations

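The rows left out for their names were alike in their animals. The row annotated H2AA, the class II antigen gene H2-Aa, lay at 13.62, 14.25, 13.91 and 14.68 in control and at 14.29, 14.52, 13.80 and 13.89 in knockout animals (difference 0.0084). The row annotated H2AB1 lay at 10.45, 10.89, 10.70 and 11.50 and at 10.88, 10.95, 10.58 and 10.81 (difference -0.077). In both rows control animal 1 was the lowest control and control animal 4 the highest of all 8, and knockout animal 2 was the highest knockout and knockout animal 3 the lowest.

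Spread between hybridisations of an animal was below that between animals for H4c9 (SD 0.109 and 0.235 on the log2 scale), and of like size for H1f2 (0.185 and 0.149), H1f4 (0.116 and 0.141) and H2ax (0.140 and 0.146). For H2bfm it was 0.970 between hybridisations and 0.391 between animals.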
